A study of Mus musculus with 59 samples.

Results

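SB-204990 (SB) and potassium hydroxycitrate (HC), both inhibitors of ATP citrate lyase, were compared directly with each other in AML12 cells. All 6 libraries labelled SB-204990 and all 6 labelled Hydroxycitrate were taken, 12 of the 24 AML12 libraries and of the 59 libraries in the whole series. AML12 is a non-tumorigenic hepatocyte line derived from a mouse carrying a human TGF-alpha transgene. The cells carried either a control siRNA (siC) or an siRNA against Acly (siAcly), and from 24 h after the siRNA they received 1 mM HC or 10 µM SB for 16 h. Each combination of siRNA and compound held 3 libraries: siC HC (libraries 7, 8 and 82), siC SB (4, 5 and 81), siAcly HC (19, 20 and 86) and siAcly SB (16, 17 and 85). Treatment times were equal, whereas the concentrations differed, so a difference between SB and HC cannot be told apart from a difference of dose. Separate cultures are not stated for the 3 libraries of a group, and p-values then measure only the spread between libraries, which may be technical.

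ATP citrate lyase splits cytosolic citrate into oxaloacetate and acetyl-CoA, the carbon source of fatty acid and sterol synthesis and of protein acetylation. Hydroxycitrate resembles citrate and competes with it at the enzyme. In hepatocytes cytosolic acetyl-CoA also feeds malonyl-CoA, which holds back the entry of fatty acids into mitochondria through carnitine palmitoyltransferase 1. Sterol depletion activates SREBP2, and free fatty acids activate PPAR-alpha, so both arms have well known transcriptional targets.

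The estimated depth of the 12 libraries was 7.31 M (siAcly SB 85) to 16.3 M reads (siC SB 4). Acly (chr11:100476353-100528000, GRCm38) followed the siRNA labels in the 12 libraries. Its normalized value was 3172 ± 435 in siC cells and 415.8 ± 108 in siAcly cells (SD, n = 6 each), leaving 13.1% of the control level (exact permutation test over 924 arrangements, two-sided, p = 0.002165). The values of the siC libraries ranged from 2576 to 3860 and those of the siAcly libraries from 314.6 to 598.5, with no overlap. Between the compounds Acly differed by 0.11 on the log2 scale (SB minus HC, 95% confidence interval −0.21 to 0.42). Outside these 12 libraries, 1 library labelled siC and bempedoic acid (library 11) had an Acly value of 404.4, within the range of the siAcly libraries, and was not used in any comparison here.

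No gene differed between SB and HC at an adjusted p under 0.05 when both siRNA backgrounds were pooled. Of 24972 genes in the table, 12064 reached a value of 10 in 3 or more of the 12 libraries and were tested with limma on log2(value + 1), with the siRNA and the library number series (81 to 87 or lower) as covariates. The smallest adjusted p was 0.9996, 0% of genes passed, and 63 genes had an unadjusted p under 0.05 (30 higher and 33 lower with SB, 0.249% and 0.274% of genes). The differences were small: the median absolute log2 difference was 0.076, its 95th percentile was 0.32, and 24 genes differed by at least 1. The 95% confidence interval of the difference lay within 1 log2 unit on either side of 0 for 93.6% of genes and within 0.5 for 69.1%. A 2-fold difference in either direction therefore lay outside the interval of most genes, whereas smaller differences were not detectable for many of them. At the study's own threshold, an unadjusted p under 0.05 with an absolute log2 difference of at least 1, 8 genes were called, 4 in each direction.

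The libraries grouped by their numbers and not by the compound. The first principal component of the 12 libraries took 39.6% of the variance and separated libraries 81, 82, 85 and 86 from the rest. The second took 23.2% and separated libraries 4, 7, 16 and 19 from libraries 5, 8, 17 and 20. Each of these sets of 4 holds 1 library of every siRNA and compound, so the compound is balanced over them. For 12 of 12 libraries the most highly correlated other library came from the same set of 4. It had the same siRNA in 8 of 12 cases and the same compound in 0 of 12. Within a set a match of the same siRNA is always of the other compound, so the layout fixed the compound in those 8 cases. Over genes the median share of variance was 52.5% for the set, 5.03% for the siRNA and 1.79% for the compound. The set has 2 degrees of freedom and the siRNA and the compound 1 each. Any factor takes some share by chance, so these shares are not tests and are not directly comparable. The labels do not say what the numbers stand for, and the division of the lower numbers into 2 sets was found from these values. The series covariate leaves that division in the residual spread. With the set as covariate instead, 0 genes passed by limma and 181 had an unadjusted p under 0.05. The median half-width of the 95% confidence interval was then 0.24 instead of 0.30. An SB and an HC library of the same siRNA and set are called a pair below, which gives 6 pairs.

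**Figure D1:**
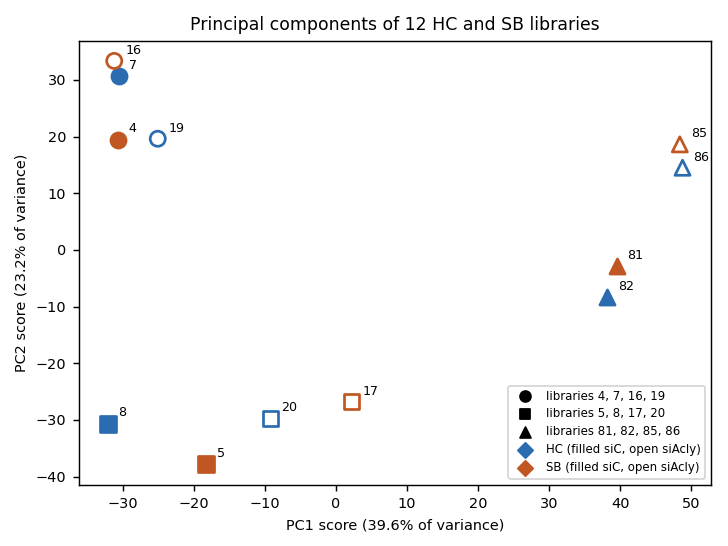
Scores of the 12 libraries on the first (39.6% of variance) and second (23.2%) principal components of the log2 values. Colour marks the compound, filled and open symbols the siRNA, the symbol's shape the set of 4 library numbers, and the printed number the library. Libraries fall into 3 groups by number, and within each group HC and SB lie side by side.

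Genes that supply and handle cytosolic acetyl-CoA had close to equal values with SB and with HC. Of 21 tested members of this list, 12 were higher and 9 lower with SB, with a median log2 difference of 0.0039 (over all 12064 genes 6077 were higher and the median was 0.0012). None passed the test and none had an unadjusted p under 0.05. Citrate synthase (Cs) had a normalized value of 3785 ± 578 with HC and 3801 ± 299 with SB (SD, n = 6), the mitochondrial citrate carrier Slc25a1 had 1290 ± 350 and 1274 ± 326, and the acetyl-CoA synthetase Acss2 had 183.4 ± 74.7 and 197.0 ± 79.4. For malic enzyme Me1 the log2 difference was 0.0022 with a 95% confidence interval from −0.16 to 0.16. The highest and lowest members were acetyl-CoA carboxylase Acaca, which makes malonyl-CoA (0.22, interval −0.14 to 0.58), and its low-abundance relative Acacb (−0.34, interval −1.56 to 0.88).

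Pdk4, the kinase that switches off pyruvate dehydrogenase and a classical PPAR-alpha target, had the smallest unadjusted p of any metabolic gene in the lists. In siC cells its normalized values were 131.4, 103.7 and 97.6 with HC and 186.6, 172.4 and 122.8 with SB. In siAcly cells they were 109.4, 73.1 and 48.7 with HC and 181.7, 107.3 and 77.99 with SB. SB was the higher library in 6 of 6 pairs, although the HC and SB values overlapped within each siRNA. The log2 difference was 0.58 (standard error 0.17, 95% confidence interval 0.22 to 0.95, unadjusted p = 0.0041), which did not pass over all genes by limma (adjusted p = 0.9996). SB was higher in 6 of 6 pairs for 77 genes (0.638% of those tested) and in 0 of 6 for 90 genes (0.746%). Without any compound Pdk4 was at 124.7 ± 18.1 in siC cells and 65.5 ± 11.8 in siAcly cells (SD, n = 3 each), and the HC values overlapped the untreated ones in both backgrounds. The SB values overlapped the untreated ones in siC cells and lay above all 3 of them in siAcly cells.

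Fatty acid oxidation and PPAR-alpha targets as a list had a median log2 difference of 0.047, with 24 of 34 tested members higher with SB and none past the test. Pdk4 and Cpt1a, the carnitine palmitoyltransferase that admits long-chain fatty acids to the mitochondrion, had an unadjusted p under 0.05. These are 2 of 34 members, beside 30 of 12064 genes (0.249%) higher with SB at that limit, and the list was not tested as a set. Its median was 0.13 in libraries 4, 7, 16 and 19 and −0.0049 in libraries 5, 8, 17 and 20. In libraries 81, 82, 85 and 86 it was 0.017. Cpt1a values in siC cells were 5076, 5133 and 5436 with HC and 5063, 6338 and 5659 with SB. In siAcly cells they were 3985, 3973 and 4474 with HC and 5282, 5026 and 4972 with SB. The siAcly values did not overlap and the siC values did. Over both backgrounds the log2 difference was 0.21 (standard error 0.081, unadjusted p = 0.023, adjusted p = 0.9996 by limma). The acyl-CoA thioesterase Acot1 was higher with SB in 6 of 6 pairs, as were 0.638% of all genes (log2 difference 0.22, standard error 0.14). At the other end of the list, the ketone body enzyme Bdh1 had a log2 difference of −0.22 and the beta-oxidation dehydrogenase Hadh one of −0.076. Other enzymes of the beta-oxidation spiral lay closer to 0, with Acadm at −0.04, Acadvl at 0.02 and Hadha at 0.05. The list's median ranged from 0.00076 (without siAcly SB 16) to 0.069 (without siC SB 5) with a library left out, and was 0.020 without siC SB 4, 0.022 without siAcly HC 20 and 0.027 without siC HC 7.

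Hk2, the hexokinase that commits glucose to glycolysis, had a log2 difference of 0.50 (standard error 0.18, unadjusted p = 0.015, adjusted p = 0.9996 by limma). Its HC and SB values were 187.1 and 154.7, 136.4 and 315.1, and 177.9 and 239.8 in the 3 siC pairs. They were 144.1 and 200.2, 179.4 and 313.9, and 223.9 and 285.3 in the 3 siAcly pairs. SB was higher in 5 of 6 pairs, and the largest steps stood in the pairs of libraries 8 and 5 and of libraries 20 and 17. Over the 30 genes of glycolysis and HIF targets the median was 0.015, with 20 higher, and Hk2 alone had an unadjusted p under 0.05. Genes of gluconeogenesis and glucose handling had a median of 0.051, with 14 of 19 higher.

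**Figure D2:**
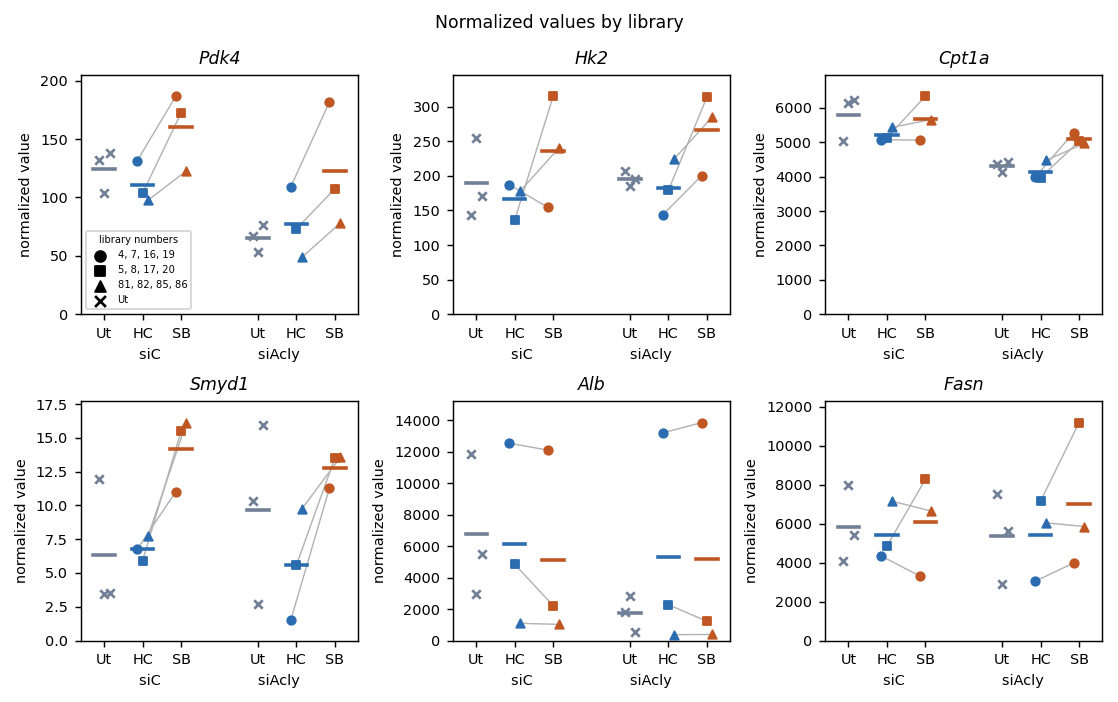
Normalized value in each library for 6 genes, by siRNA and treatment (Ut, untreated). Points are libraries, horizontal lines are means of 3, symbol shapes are the sets of 4 library numbers, and grey lines join the SB and HC library of the same siRNA and set. Pdk4 and Smyd1 are higher with SB in 6 of 6 pairs, Hk2 and Cpt1a in 5 of 6, whereas Alb and Fasn are spread mostly between sets.

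Most sterol and fatty acid synthesis genes had higher values with SB, and none passed the test. Of 25 cholesterol synthesis genes and SREBP2 targets, 21 were higher with SB, with a median log2 difference of 0.084. The highest was Hsd17b7, an enzyme of the post-lanosterol pathway, at 0.31 (95% confidence interval −0.095 to 0.71), followed by lanosterol synthase Lss at 0.21. The lowest was the sterol isomerase Ebp at −0.078 (interval −0.39 to 0.23). The list's median was −0.091 without siAcly SB 17, 0.25 without siAcly SB 16 and 0.27 without siAcly HC 20, so its direction rested on single libraries. In libraries 81, 82, 85 and 86 alone 3 of the 25 were higher, with a median of −0.055. Fatty acid synthesis, elongation and desaturation had a median of 0.085, with 17 of 25 higher, and fatty acid synthase Fasn was at 5432 ± 1648 with HC and 6546 ± 2903 with SB (SD, n = 6). That list's median was 0.0034 without siAcly SB 17, 0.026 without siAcly HC 19, 0.039 without siC HC 8, 0.041 without siC SB 5, 0.049 without siAcly HC 86 and 0.053 without siC HC 7, and at most 0.092 with any library left out. Genes of lipid droplets and lipid storage had a median of 0.017, with 10 of 14 higher. Among them the lipid droplet coat protein Plin2 was at 4153 ± 1061 with HC and 4416 ± 941 with SB.

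SB and HC values did not overlap within either siRNA for 20 genes (0.166% of those tested). In 6 of these the direction was the same in both backgrounds, and in 14 it was opposite. Of the same direction, Smyd1 and Tmem206 were higher and Zfp973, Zfp296, Tmem181c-ps and Zfp607b lower with SB, and no gene of this list passed an adjusted p of 0.05 over both backgrounds. Smyd1 (chr6:71213940-71322233, GRCm38), a histone methyltransferase known from muscle, was the 1 gene of 12064 whose 6 SB values all lay above its 6 HC values. Its values with HC were 6.75, 5.91 and 7.71 in siC cells and 1.55, 5.57 and 9.73 in siAcly cells. With SB they were 10.999, 15.5 and 16.1 in siC cells and 11.3, 13.5 and 13.6 in siAcly cells. The log2 difference was 1.12 (standard error 0.33, unadjusted p = 0.0046, adjusted p = 0.9996 by limma), at a level of few reads per library. Untreated libraries spanned both groups, from 3.42 to 11.9 in siC cells and from 2.68 to 15.9 in siAcly cells. Zfp296, a zinc finger protein, was at 47.8 ± 13.9 with HC and 29.7 ± 7.396 with SB (SD, n = 6), a log2 difference of −0.67 with a 95% confidence interval from −1.14 to −0.20. Zfp607b, also a zinc finger gene, was at 11.6 ± 1.65 and 6.37 ± 3.01, and the pseudogene Tmem181c-ps at 23.03 ± 4.79 and 15.4 ± 7.36. The anion channel gene Tmem206 differed least among the 6, at 187.8 ± 6.998 with HC and 207.6 ± 13.6 with SB. The genes of opposite direction that the fixed rule names were Ncbp3, Slc25a43, Trpc1, Chd2, Chrna1os, Mrpl44, Zfp160, Ube2e2, Vps4a, Flt3l and Lst1, with pooled log2 differences from −0.22 (Zfp160) to 0.094 (Slc25a43).

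Within siC cells no gene passed by limma, and 56 had an unadjusted p under 0.05 (8 higher and 48 lower with SB, 0.464% of genes). Within siAcly cells 1 gene passed (0.00829%), and 615 had an unadjusted p under 0.05 (360 higher and 255 lower, 5.1%). The gene that passed was Zfp973 (adjusted p = 3.7e-04 by limma), which was listed at 0 in the 3 siAcly SB libraries. Whether the SB against HC difference itself differed between siAcly and siC cells was tested as an interaction, which 0 genes passed by limma and 414 reached at an unadjusted p under 0.05 (320 larger and 94 smaller in siAcly cells). The smallest adjusted p of the interaction was 0.077, for Zfp973.

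Zfp973 has a copy, Zfp965, that short reads can hardly tell from it. Their annotated coding sequences are 957 bases long and differ at 0 positions, and 75.8% of the 31-base words in the transcripts of Zfp973 also occur in those of Zfp965. Both genes lie on chromosome 2, Zfp973 at chr2:176670522-176719085 and Zfp965 at chr2:175469985-175482171 (GRCm38). The last 90 coding bases of each are given here because they show the last zinc finger and the identity that bears on the values. Capitals mark a motif typical of the linkers that join zinc fingers, here just before the end of the coding sequence. The first line is read from chr2:176680701-176680790 and the second from chr2:175480164-175480253, both on the plus strand:
Zfp973: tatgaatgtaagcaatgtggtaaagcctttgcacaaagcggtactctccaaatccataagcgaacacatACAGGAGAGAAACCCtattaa
Zfp965: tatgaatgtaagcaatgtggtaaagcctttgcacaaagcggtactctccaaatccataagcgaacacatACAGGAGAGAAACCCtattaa

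In siAcly cells Zfp973 was at 29.9, 25.5 and 21.1 with HC and listed at 0 in the 3 SB libraries. Zfp965 showed the mirror image, listed at 0 in the 3 HC libraries and at 29.4, 16.8 and 18.5 with SB. In siC cells all 6 libraries had Zfp973 values (28.3, 26.8 and 35.9 with HC, 13.8, 21.2 and 22.4 with SB) and Zfp965 at 0. Over the 24 AML12 libraries exactly 1 of the 2 genes was listed at 0 in every library, untreated ones included. The sum of the pair was 25.5 ± 4.43 with HC and 21.6 ± 6.81 with SB in siAcly cells, and 30.3 ± 4.86 and 19.1 ± 4.62 in siC cells (SD, n = 3 each). With the pair summed the log2 difference in siAcly cells was −0.26 (standard error 0.33, adjusted p = 0.91 by limma), and 0 genes passed there.

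The histone genes Hist1h2br (chr13:21833743-21837530) and Hist1h2bq (chr13:21806612-21810197) formed a second pair of this kind. Their coding sequences, 381 bases each, also differ at 0 positions. The first 90 coding bases are shown because they carry the lysine-rich tail of histone H2B and are the same in both; capitals mark the start codon. They stand at chr13:21833771-21833860 on the plus strand and at chr13:21810082-21810171 on the minus strand (GRCm38):
Hist1h2br: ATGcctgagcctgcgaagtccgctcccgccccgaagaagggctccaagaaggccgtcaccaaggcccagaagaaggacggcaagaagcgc
Hist1h2bq: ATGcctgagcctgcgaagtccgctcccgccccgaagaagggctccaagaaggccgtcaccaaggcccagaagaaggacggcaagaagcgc

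Taken alone, Hist1h2br had the most negative log2 difference of all genes tested, −4.20, and Hist1h2bq the most positive, 3.02, both sizes that depend on the pseudocount because several libraries are at 0. In siAcly cells Hist1h2br was at 88.2, 111 and 59.1 with HC and at no more than 0.72 with SB, whereas Hist1h2bq was at most 0.74 with HC and at 35.2, 50.8 and 48.5 with SB. In every one of the 24 AML12 libraries the lower gene of the pair had a value of 5.03 or less. The sum was 86.4 ± 26.5 with HC and 45.2 ± 8.75 with SB in siAcly cells, and 66.3 ± 28.1 and 50.7 ± 49.4 in siC cells. Summed, the log2 difference over both backgrounds was −0.94 (standard error 0.40, unadjusted p = 0.034, adjusted p = 0.9996 by limma). Other low-p genes also share sequence with relatives: Dynlt1f shares 84.4% of its 31-base words with Dynlt1c, the pseudogene Oaz1-ps 95.3% with Oaz1, and the pseudogene Tmem181c-ps 77.8% with Tmem181b-ps. Whether reads were divided between these relatives was not tested.

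**Figure D3:**
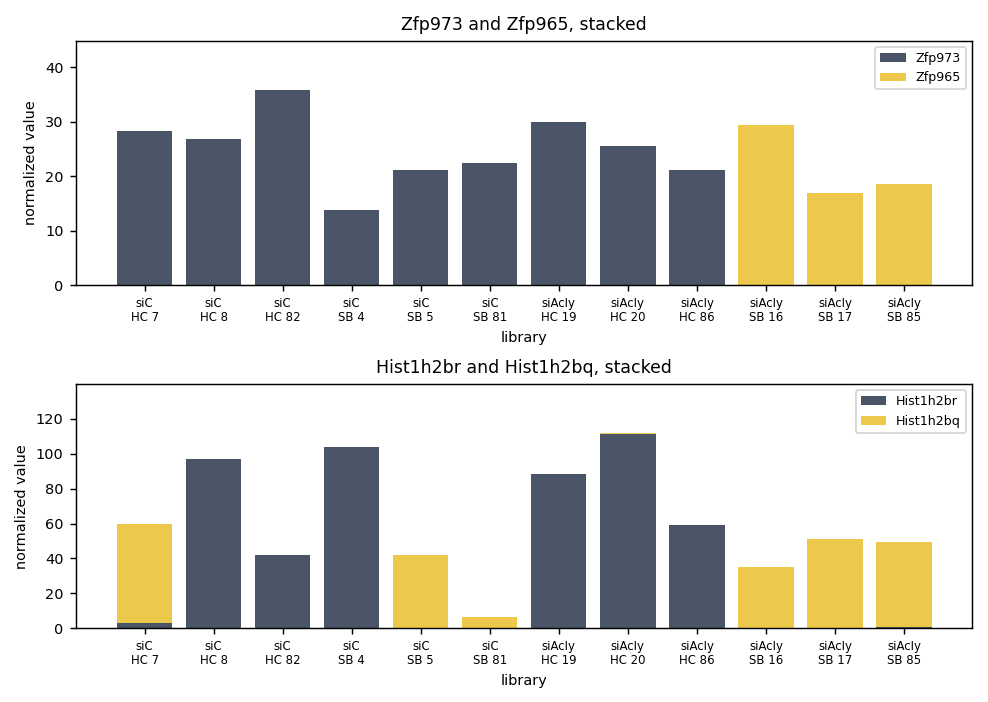
Normalized values of both members of the identical pairs, stacked, in each of the 12 libraries. The colour changes from one member to the other between libraries, while the height is the sum; in siAcly cells the HC libraries hold Zfp973 and Hist1h2br and the SB libraries Zfp965 and Hist1h2bq.

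Hepatocyte genes were present, and their levels moved with the sets of libraries. Of 10 hepatocyte markers, 10 passed the limit on low values, and 9 of them were lower with SB, with a median log2 difference of −0.066 (−0.27 in siC cells, where 1 of 10 was higher, and −0.026 in siAcly cells, where 4 were); none passed the test. Transferrin (Trf), with the highest value among them, was at 43494 with HC and 43358 with SB. Albumin (Alb) ranged from 372.5 to 13197 with HC and from 387.2 to 13843 with SB, the lowest values in libraries 81, 82, 85 and 86. The bile duct keratin Krt19 was at 13415 with HC and 12329 with SB, and 6 of 9 bile duct markers passed the limit. Of 10 fibroblast and stellate cell markers 2 were tested and of 10 macrophage and leukocyte markers 5, all at low levels except Cd74 (88.2 with HC and 84.8 with SB). No endothelial marker passed the limit. In these bulk samples fewer cells of a type and less RNA per cell cannot be told apart.

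Lists of secreted and detoxifying liver proteins had negative medians. Of 24 glutathione S-transferases, which couple glutathione to electrophiles, 24 were lower with SB over both backgrounds, with a median log2 difference of −0.13, from −0.50 (Gsto2) to −0.010 (Gstt2), and none had an unadjusted p under 0.05. In siC cells 10 of the 24 were higher with SB (median −0.049) and in siAcly cells 1 of 24 (median −0.22). Gstp2, at 89.3 ± 25.9 with HC and 67.9 ± 23.5 with SB, was lower with SB in 6 of 6 pairs. For 0.746% of all genes SB was higher in 0 of 6 pairs, and Gstp2 shares 54.8% of its 31-base words with Gstp1. Acute phase, iron and secreted liver proteins had a median of −0.12, with 8 of 30 higher. This median was 0.12 without siAcly SB 17, 0.089 without siAcly HC 19 and 0.065 without siC SB 5, and −0.32 without siAcly SB 16. Among them the thyroxine carrier transthyretin (Ttr) was at 7548 with HC and 5716 with SB. Nuclear-encoded subunits of oxidative phosphorylation had a median of −0.11, with 4 of 48 higher. In siC cells 44 of the 48 were higher (median 0.059) and in siAcly cells 2 of 48 (median −0.28). Extracellular matrix genes and TGF-beta targets had a median of 0.13, with 21 of 27 higher, and interferon response genes one of 0.0995, with 27 of 35 higher. With a library left out the matrix median ranged from 0.023 (without siC SB 5) to 0.24 (without siC SB 4), and was 0.058 without siAcly SB 17 and 0.066 without siAcly HC 19. The interferon median turned to −0.048 without siAcly SB 85, was 0.017 without siC HC 82, 0.036 without siC SB 5, 0.059 without siAcly HC 20 and 0.065 without siC HC 7, and was 0.22 without siAcly SB 17, 0.21 without siC HC 8 and 0.17 without siC SB 81. The oxidative phosphorylation median ranged from −0.17 (without siC HC 7) to −0.058 (without siAcly HC 19), with −0.059 without siAcly HC 20 and −0.062 without siAcly SB 16, and that of the glutathione S-transferases from −0.19 (without siC HC 7) to −0.058 (without siAcly HC 19), with −0.077 without siAcly SB 17. No member of these lists passed the test.

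Transcript length moved with these differences. A longest transcript was found in the annotation for 99.2% of the genes tested. Across genes, which are not independent replicates, the SB minus HC difference had a Spearman's rho with length of 0.47 over both backgrounds, −0.27 in siC cells and 0.63 in siAcly cells. The shortest decile of genes had a median difference of −0.11 over both backgrounds, 0.049 in siC cells and −0.26 in siAcly cells. The longest decile had medians of 0.097, −0.092 and 0.32. Set against the mean of the 12 libraries, the longest minus the shortest decile was 0.59, −0.063 and −0.10 in the siC HC libraries (7, 8 and 82) and −0.21, 0.086 and 0.020 in the siC SB libraries (4, 5 and 81). It was −0.63, −0.52 and 0.11 in the siAcly HC libraries (19, 20 and 86) and 0.35, 0.045 and 0.33 in the siAcly SB libraries (16, 17 and 85). The HC and SB libraries overlapped on this measure in both backgrounds, and the extremes were siC HC 7 and siAcly HC 19, which belong to the same set of 4.

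**Figure D4:**
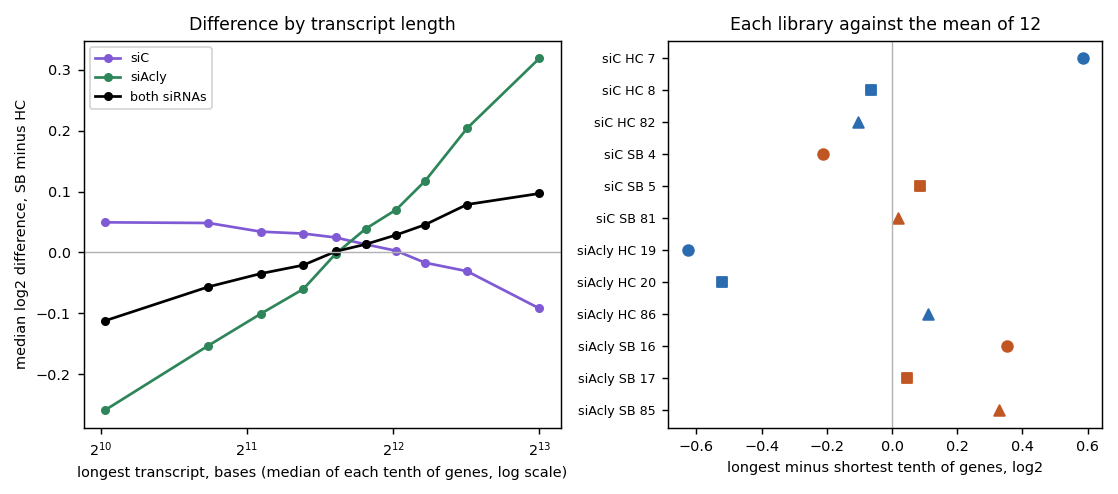
Left, median log2 difference (SB minus HC) in each decile of the genes by longest transcript, against the decile's median length in bases (log scale), for siC cells, siAcly cells and both. Right, the median of the longest decile minus that of the shortest decile in each library, relative to the mean of the 12 libraries (blue HC, orange SB; shapes are the sets of 4). The slope is upward in siAcly cells (−0.26 to 0.32) and downward in siC cells (0.049 to −0.092).

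The lists of short transcripts shrank towards 0 once each library's trend on length was removed. The oxidative phosphorylation subunits, with a median longest transcript of 1300 bases, went from −0.11 to −0.011, the glutathione S-transferases (1180 bases) from −0.13 to −0.047, and the secreted liver proteins (1540 bases) from −0.12 to −0.027. Fatty acid oxidation and PPAR-alpha targets (2920 bases) went from 0.047 to 0.063, with 28 of 34 higher, cholesterol synthesis from 0.084 to 0.093 and interferon response from 0.0995 to 0.11. The matrix genes, with long transcripts of 5316 bases, went from 0.13 to 0.086. After this removal 63 genes had an unadjusted p under 0.05 over both backgrounds, 67 in siC cells and 244 in siAcly cells, where 615 had one before. What gives rise to the length trend was not tested.

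The number of genes that passed was very different between separate fits of the 3 sets of libraries. Each set was fitted on its own, 2 SB against 2 HC libraries with the siRNA as covariate, which leaves 1 residual degree of freedom and leans on the spread shared over genes. In libraries 4, 7, 16 and 19, 2 genes passed an adjusted p of 0.05 by limma, with 44 at an unadjusted p under 0.05. In libraries 81, 82, 85 and 86, 1 gene passed, with 1044 at an unadjusted p under 0.05, and 159 passed when the limit on low values was counted in these 4 libraries. In libraries 5, 8, 17 and 20, 943 genes passed, 602 higher (4.99%) and 341 lower (2.83%) with SB. When the spread was instead taken over all 12 libraries, with 5 residual degrees of freedom, 0 genes passed in any set by limma, and 818 had an unadjusted p under 0.05 in libraries 5, 8, 17 and 20. The difference between that set and the other sets was passed by 0 genes, with 551 at an unadjusted p under 0.05. Any difference between the 3 sets (F test by limma) was also passed by 0 genes, with 196 at an unadjusted p under 0.05. A difference between the sets was therefore not shown for any single gene.

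Genes that passed in libraries 5, 8, 17 and 20 fitted alone included lipid synthesis and matrix genes on the higher side. On the lower side they included secreted hepatocyte proteins. That fit has 1 residual degree of freedom, and 0 genes passed in this set when the spread was taken over all 12 libraries. Of 25 cholesterol synthesis genes 9 passed as higher, of 25 fatty acid synthesis genes 8, and of 27 matrix genes 11, against 4.99% of all genes. Of 30 secreted liver proteins 10 passed as lower, of 48 oxidative phosphorylation subunits 14, of 10 hepatocyte markers 4 and of 24 glutathione S-transferases 5, against 2.83%. Fasn had a log2 difference of 0.71 in this set, with −0.0017 in libraries 4, 7, 16 and 19 and −0.075 in libraries 81, 82, 85 and 86. The trifunctional pyrimidine synthesis enzyme Cad was at 0.76 in this set, Hk2 at 1.00, the sterol regulator Srebf2 at 0.54, and Sqle, which epoxidizes squalene, at 0.47. Alb was at −1.01, from 4844 to 2214 in siC cells and from 2273 to 1225 in siAcly cells, and differed by 0.0091 and −0.018 in the other sets. Ttr was at −0.65, the protease inhibitor Serpina1a at −0.72 and the acute phase protein Saa3 at −0.75. With the length trend removed 964 of the 11971 genes with a length passed in this set. Of all 11971, 437 passed as lower, among them 8 of the secreted liver proteins and 5 of the hepatocyte markers. So did 3 of the 48 oxidative phosphorylation subunits and 2 of the 24 glutathione S-transferases. As higher, 527 of the 11971 passed, among them 9 of the cholesterol synthesis genes, 9 of the fatty acid synthesis genes and 9 of the matrix genes. The shares of 4.99% and 2.83% belong to the fit before this removal.

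The genes that passed in libraries 5, 8, 17 and 20 were followed into the other sets, without a test. Of the 602 genes higher with SB in libraries 5, 8, 17 and 20, 46.8% were also higher in libraries 4, 7, 16 and 19 and 47.2% in libraries 81, 82, 85 and 86, against 49.2% and 46.6% of all genes. Of the 341 lower genes, 63.9% and 55.1% were also lower, against 50.8% and 53.3% of all genes. Across all 12064 genes the differences in the sets had a Spearman's rho with each other of 0.059, 0.14 and 0.0079. Interferon response genes had a median of 0.35 in libraries 81, 82, 85 and 86, where 33 of 35 were higher, 0.022 in libraries 4, 7, 16 and 19, and −0.15 in libraries 5, 8, 17 and 20. Isg15, a ubiquitin-like interferon product, had log2 differences of 1.14, −0.061 and −0.42 in that order. Pdk4, Smyd1 and Cpt1a were named for their differences over all of these same libraries, so their sizes within the sets are no separate support. Pdk4 had 0.61 in libraries 4, 7, 16 and 19 and 0.64 in libraries 5, 8, 17 and 20. It had 0.50 in libraries 81, 82, 85 and 86. In the same order Smyd1 had 1.45, 1.20 and 0.71, and Cpt1a 0.20, 0.32 and 0.11.

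**Figure D5:**
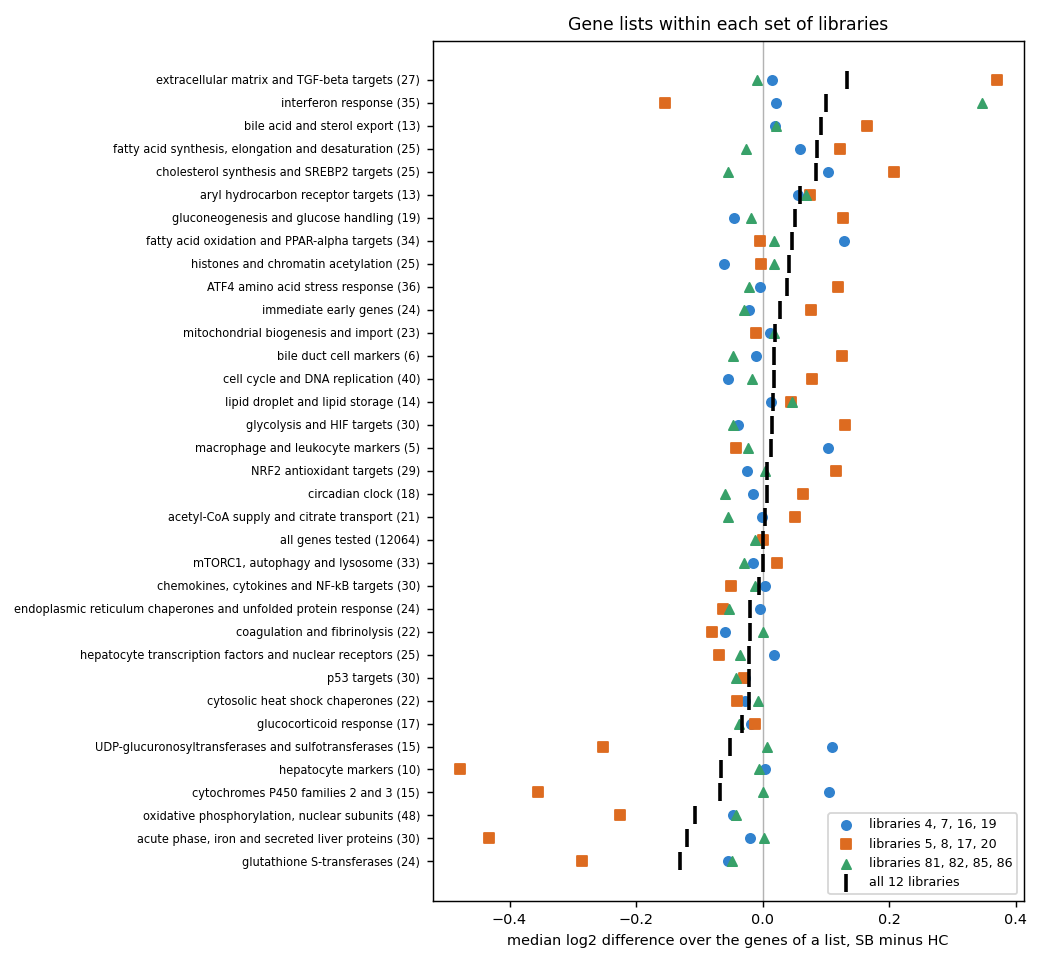
Median log2 difference (SB minus HC) over the tested genes of each list, with the number of genes in parentheses, within each set of 4 libraries (symbols) and over all 12 (black bars). Secreted liver proteins, hepatocyte markers and matrix genes stand away from 0 in libraries 5, 8, 17 and 20 and interferon genes in libraries 81, 82, 85 and 86, while most lists lie within 0.1 of 0 in the other sets.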

How the data were processed

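RNA-seq libraries of AML12 cells were made by the authors with a stranded mRNA ligation kit, aligned to mm10 and counted per gene. The deposited AML12 values are a signal per gene, counts that the authors divided by a size factor (DESeq median of ratios). No count model was therefore run. The counts are not all whole reads: Hist1h2br was at 0.41 in siAcly SB 17, where the estimated value of a single read was 0.95. How fractions of a read were assigned to genes is not stated. The total per library, estimated from the value of a single read, was 7.31 to 16.3 M reads. Values were tested with limma 3.58.1 in R 4.3.3 on log2(value + 1), for genes with at least 10 in at least 3 of 12 libraries, with a trend of the prior variance and Benjamini-Hochberg adjustment over 12064 genes, two-sided. Fold changes on this scale understate those of low genes. Within a siRNA, and for the interaction, the 4 groups shared 1 spread. The tests were checked on simulated data.

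Genes were named by a rule: the acetyl-CoA list; genes past the threshold, filled up with those whose SB and HC values do not overlap within either siRNA (unnamed gene models left out, 1 higher and 2 lower); the 2 highest and 2 lowest members of each list; and the largest interactions. Other genes named, and the division into 3 sets of 4 library numbers, were chosen after their values were seen. The comparison and the lists were chosen with earlier results of these data known. Sequences and transcript lengths are those of the GRCm38 annotation (GENCODE). The tables of mouse tissues were not used here. Values of some list members are not reported here.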

Additional observations from a re-analysis of the deposited data

How the results depend on the processing

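No paired analysis was possible because the labels give the groups no shared replicate numbers; the 6 pairs and the sets below were defined from the principal components, after seeing the data. The tools edgeR and DESeq2 were not run, since the deposited values are not counts. Over both backgrounds 0 genes passed under 25 of 30 alternatives, among them each library left out (0 to 0 genes), other pseudocounts and no limit on low values. The exceptions were the study's threshold (8 genes), only libraries 81 to 87 with the limit on low values counted in them (159 genes, or 1 with the 12064 genes), and the fits within libraries 4, 7, 16 and 19 (2) and 5, 8, 17 and 20 (943). In libraries 81 to 87 alone Zfp973 was among those that passed. In siC cells 0 genes passed under 16 of 16 alternatives. In siAcly cells 1 gene passed under 16 of 17, with each library left out 1 to 1, and 0 with the identical pairs summed. The interaction was passed by 1 gene with the set of 4 library numbers as covariate (Zfp973, adjusted p = 0.030), an alternative chosen after seeing the data, like the fits within sets, the pairs, the length trend and the summed pairs.

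Counts at an unadjusted p under 0.05 depended on single libraries. Over both backgrounds the count of 63 became 41 to 772 with a library left out, with 772 without siC HC 7, 280 without siC SB 4 and 41 without siAcly HC 20. It was 211 with no limit on low values, 35 with no series covariate, 31 in libraries numbered 23 or lower, 124 with no trend of the prior variance, 181 with the set as covariate and 236 with 6 pairs. In siC cells the count of 56 became 24 to 337 with a library left out (337 without siC HC 82). In siAcly cells 615 became 146 to 1480 (146 without siAcly HC 19, 1480 without siAcly HC 86), and the interaction's 414 became 141 to 1179. The cause was not tested. No value reversed its direction past a threshold. Acly remained lower in siAcly cells with each library left out, by −3.07 to −2.88 on the log2 scale. Values listed at 0, low genes such as Smyd1 and the depth of siAcly SB 85 (7.31 M reads) limit what can be seen.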

Other observations

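Other lists fixed for hepatocytes showed small medians over both backgrounds. Genes of the ATF4 amino acid stress response had a median log2 difference of 0.039, with 25 of 36 higher, of which the siC median was 0.12 and the siAcly median 0.0011. The amino acid transporter Slc7a1 was at 565.7 with HC and 651.8 with SB. Cell cycle genes had a median of 0.018, with 24 of 40 higher, and p53 targets one of −0.022, with 14 of 30 higher. Gadd45a, a p53 target of the stress response, was at 327.8 ± 62.5 with HC and 277.5 ± 64.9 with SB (log2 difference −0.25, unadjusted p = 0.047, adjusted p = 0.9996 by limma). Cytosolic heat shock chaperones had a median of −0.022, with 5 of 22 higher, and NRF2 antioxidant targets one of 0.0076, with 16 of 29 higher. The bile acid receptor Nr1h4 was lower with SB in 6 of 6 pairs, at 1913 ± 358 with HC and 1739 ± 353 with SB, and so was coagulation factor F11, at 43.9 ± 14.5 and 34.0 ± 16.1. The mitochondrial protease Lonp1 was higher in 6 of 6, at 4402 ± 734 and 4687 ± 690. Over all genes tested SB was higher in 6 of 6 pairs for 0.638% and in 0 of 6 for 0.746%. Some steps were very small, with Nr1h4 at 1497.2 in siC HC 82 and 1494.7 in siC SB 81. Lonp1 was at 4225 in siAcly HC 19 and 4242.4 in siAcly SB 16.

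Lists of xenobiotic and bile acid metabolism and of daily rhythm also had small medians over both backgrounds. Cytochromes P450 of families 2 and 3 had a median log2 difference of −0.067, with 6 of 15 higher, UDP-glucuronosyltransferases and sulfotransferases one of −0.052, with 6 of 15 higher, and aryl hydrocarbon receptor targets one of 0.058, with 9 of 13 higher. Genes of bile acid and sterol export had a median of 0.092, with 8 of 13 higher, among them the cholesterol exporter Abca1 at 106.3 with HC and 126.3 with SB. The circadian clock list had a median of 0.0061, with 9 of 18 higher, −0.060 in siC cells and 0.16 in siAcly cells, and −0.0085 over both with the length trend removed. Chemokines, cytokines and NF-kB targets had a median of −0.0053, with 14 of 30 higher, and genes of the endoplasmic reticulum chaperones and unfolded protein response one of −0.019, with 8 of 24 higher. The stress sensor Ern1 was at 194.0 with HC and 248.0 with SB. No member of these lists passed the test.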
